A study of Homo sapiens with 16 samples.

Results

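The tetraspanins described here are 10 genes of a family of small membrane proteins, taken as every probe set whose platform gene symbol is CD53, CD37, CD63, CD81, CD82, CD9, CD151, TSPAN3, TSPAN4 or TSPAN31. Of the 10 genes, 9 had a probe set, 1 each, among the 12626 probe sets of the array, which name 8228 genes by a single symbol. CD82 had none under its symbol and was not analysed here. The group was chosen from earlier results on these arrays, in which intensities of induced and control cells were compared at each hour. Those differences are therefore given as a description, without p-values. Counts of members past a threshold on them are a description too, and no test.

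Tetraspanins cross the membrane 4 times and carry 2 loops outside the cell, the larger of which binds partner proteins. They gather integrins, immunoglobulin-family proteins, proteases and receptors into patches of the plasma membrane or of endosomes, and so affect adhesion, migration, receptor traffic and signalling. CD53 and CD37 are mostly found on leukocytes, CD63 is a protein of late endosomes, lysosomes and exosomes, and CD81, CD9 and CD151 occur on many cell types.

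The study used U937, a human monocytic leukaemia cell line. The cells carried AML1-ETO, the fusion protein of the t(8;21) translocation in acute myeloid leukaemia, under a tetracycline-controlled promoter. Control cells carried the same construct and were taken at 0, 24, 48 and 72 h, and cells with AML1-ETO induced at 12, 24, 48 and 72 h, with 2 replicates in each of the 8 groups. The labels do not say whether the replicates were separate cultures. A p-value here sets a difference against the spread between replicates, which may be only technical. The labels also do not say whether the line is 1 clone, and controls of 12 h were not analysed here. RNA was hybridised to Affymetrix U95Av2 oligonucleotide arrays, whose deposited values are linear intensities, of which 25.8% lie below 0.

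The labels were checked on RUNX1T1, the gene for ETO. The probe set of it used here read at most 91.4 in all control arrays, 3974 and 8650 at 48 h and 8355 and 10603 at 72 h after induction. At 12 h both induced arrays read 86.1 or less, and at 24 h replicate 1 read 1592 and replicate 2 read -47.5. The other 3 probe sets of RUNX1T1 read at most 351.5 in every array and none of the 3 had all 4 late induced arrays above its controls, so the check rests on 1 probe set. Values at 24 h are therefore also given without that array where they turn on it. Array medians lay between 220.3 and 337.5, and replicates correlated across probe sets at r = 0.912 to 0.955. Of 9 measured myeloid and monocytic markers, 5 (CYBB, FCGR2A, LYZ, MPO and SPI1) exceeded the floor of 135.61 described next in at least 8 of the 16 arrays, and CD14, CD68, CSF1R and ITGAM did not. The same held for 3 of 5 erythroid and megakaryocyte markers (ALAS2, ITGA2B and PF4), 2 of 6 lymphoid markers (CD3E and CD79A) and 2 of 6 epithelial and fibroblast markers (CDH1 and COL1A1), so this count does not set the cells apart as myeloid. The intensities of the myeloid list summed to between 5837 and 16974 in control arrays and between 5804 and 14508 in induced arrays.

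For log2 values, intensities under the 40th percentile of all values (135.61) were set to it, which is called the floor. A probe set entered the model with 2 or more of the 16 arrays above 292.74, the median intensity. This held for 8 of the 9 tetraspanin probe sets, for CD53 only through 7 induced arrays, and for 7824 probe sets in all. CD9, an adhesion-modulating tetraspanin, was the one left out, with all 16 arrays between -128.2 and 104.4, under the floor. Log2 differences come from a limma fit with 1 mean for each of the 8 groups, with their standard error (SE). Where arrays of the lower side lay at the floor and none of the higher side did, the fold is a lower bound and is written "at least". Intensities of different probe sets are not on a common scale, so no gene is ranked against another by level.

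Promoter sequences are shown for CD53 and TSPAN31, the members with the largest upward differences from controls at 48 and 72 h. They are the 250 bases before each start that RefSeq gives for GRCh38.p14, 5′ to 3′, with matches to 2 kinds of short motif in capitals. One is the core of the RUNX binding site, TGTGGT or TGCGGT, since the fusion keeps the RUNX1 domain that reads it. The other is GAGGAA, the core bound by the myeloid factor PU.1. Both strands were searched, and the motifs do not overlap one another in these sequences.
CD53 first start, chr1:110870960-110871209, plus strand: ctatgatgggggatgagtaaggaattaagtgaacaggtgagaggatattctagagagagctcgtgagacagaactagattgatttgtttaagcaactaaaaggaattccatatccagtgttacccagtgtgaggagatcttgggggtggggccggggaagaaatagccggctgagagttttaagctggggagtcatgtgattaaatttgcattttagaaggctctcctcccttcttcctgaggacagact
CD53 second start, chr1:110872898-110873147, plus strand: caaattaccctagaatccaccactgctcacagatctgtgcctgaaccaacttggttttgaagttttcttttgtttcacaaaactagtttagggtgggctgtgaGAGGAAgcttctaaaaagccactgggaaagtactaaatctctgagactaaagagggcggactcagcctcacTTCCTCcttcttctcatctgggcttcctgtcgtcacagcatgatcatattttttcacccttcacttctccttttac
TSPAN31, chr12:57744789-57745038, plus strand: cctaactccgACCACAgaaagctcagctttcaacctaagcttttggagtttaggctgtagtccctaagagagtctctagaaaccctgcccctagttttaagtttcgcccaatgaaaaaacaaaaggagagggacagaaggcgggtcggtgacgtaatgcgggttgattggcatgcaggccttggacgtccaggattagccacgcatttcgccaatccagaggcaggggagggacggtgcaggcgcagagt

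Neither CD53 window held a RUNX core in either form. The window of the second start held GAGGAA at bases 104 to 109 on the plus strand and at bases 175 to 180 on the minus strand, where it reads TTCCTC. The TSPAN31 window held TGTGGT at bases 11 to 16 on the minus strand, where it reads ACCACA, and no GAGGAA. Among 34941 RefSeq windows of the same length, 16.3% held a RUNX core in either form and 23.6% held GAGGAA. The table held windows for 6 of the 10 genes, with a RUNX core in 2 of 5 windows for TSPAN4, which overlap and share 1 site, in 1 of 4 for CD9, in 0 of 8 for CD63 and in 0 of 1 for CD82. GAGGAA was found in 3 of 8 windows for CD63, 2 of 4 for CD9, 1 of 5 for TSPAN4 and 0 of 1 for CD82. CD37, CD81, CD151 and TSPAN3 had no entry. A match describes the letters only, and the array does not tell which start a transcript used.

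CD53, a tetraspanin of leukocytes that takes part in their adhesion and receptor signalling, differed most between induced and control cells among the members. In control cells it read -96.0 and 242.0 at 0 h, -1.90 and 127.6 at 24 h, 105.0 and 146.0 at 48 h, and -25.4 and 117.1 at 72 h. In induced cells it read 127.8 and 358.0 at 12 h, 624.7 and 392.5 at 24 h, 3200.4 and 2439 at 48 h, and 3287 and 2399.8 at 72 h. Only the 24, 48 and 72 h induced arrays all exceeded every control array. The mean was 2820 ± 538.1 (SD, n = 2) at 48 h and 2843 ± 627.4 (SD, n = 2) at 72 h, so that the later group did not differ from the earlier one beyond their spread. In a bulk RNA sample, more cells that express a gene and more RNA per cell cannot be told apart.

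The fitted CD53 difference was log2 1.87 at 24 h (SE 0.49), 4.31 at 48 h (SE 0.49) and 4.37 at 72 h (SE 0.49). These are at least 3.65-fold, at least 19.9-fold and at least 20.7-fold, since 2, 1 and 2 control arrays lay at the floor. Without replicate 2 of the induced cells at 24 h, in which RUNX1T1 was under the floor, the 24 h difference was 2.2. With the floor raised to the median of all values, the 3 differences became 0.76, 3.25 and 3.26, and with no floor they were 2.30, 4.18 and 4.94. The size of the CD53 difference thus depends on where low values are set, because nearly all control arrays lie near or under the floor.

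TSPAN31, a tetraspanin first described as a gene amplified in sarcomas, was higher in induced cells at all 3 shared hours. In control cells it read 524.0 and 515.9 at 0 h, 472.7 and 511.2 at 24 h, 226.3 and 300.4 at 48 h, and 659.8 and 581.3 at 72 h. In induced cells it read 189.2 and 282.1 at 12 h, 580.4 and 729.3 at 24 h, 1339 and 1614 at 48 h, and 2236 and 1759 at 72 h. The 4 induced arrays of 48 and 72 h stood above the other 12 arrays. Both 12 h arrays lay below every control array except replicate 1 of 48 h (226.3), which lay between them. The fitted difference was log2 0.40 (SE 0.34) at 24 h, 2.50 (SE 0.34) at 48 h and 1.68 (SE 0.34) at 72 h, or 5.64-fold at 48 h and 3.20-fold at 72 h. Without replicate 2 of the induced cells at 24 h, the 24 h value was 0.24. The larger value at 48 h goes with a low control pair at that hour, while the induced mean was higher at 72 h, at 1998 ± 337.4 (SD, n = 2) against 1477 ± 194.0 (SD, n = 2).

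RefSeq lists CDK4, the cyclin-dependent kinase of the G1 phase, as the next protein-coding gene after TSPAN31. The ends of the pair overlap, and CDK4 lies on the minus strand. CDK4 is no tetraspanin, and its probe set moved the other way. Control arrays read between 6802 and 9226, the induced arrays of 48 h 4084 and 4706, and those of 72 h 4244 and 4520.1. In limma's fit CDK4 fell 1.75-fold at 48 h (log2 -0.81, SE 0.16, adjusted p = 0.00299) and 1.91-fold at 72 h (log2 -0.93, SE 0.16, adjusted p = 0.000529), lower in 4 of 4 arrays. CDK4 was named after its values were seen, so these adjusted p-values are no independent test. Whether the overlap has a part in either change was not tested.

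**Figure D1:**
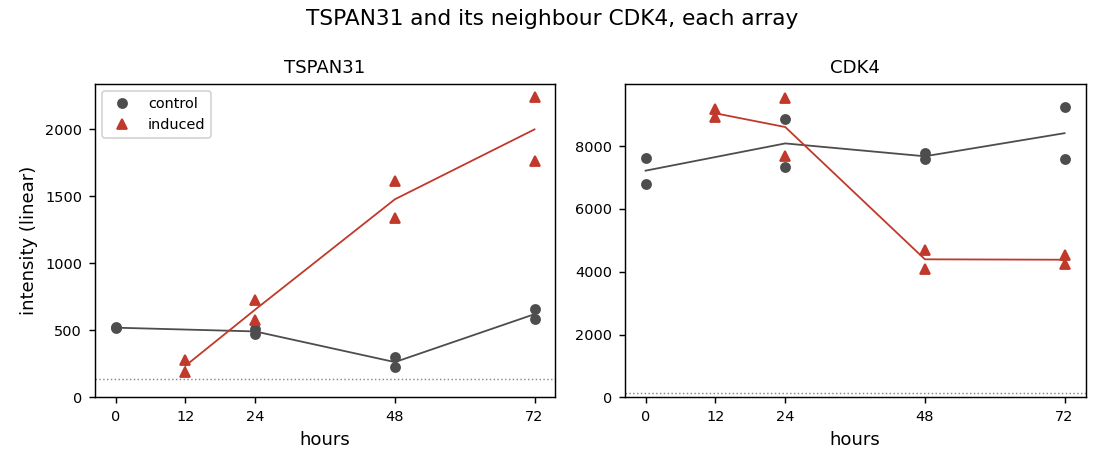
Linear intensity of TSPAN31 (left) and its neighbour CDK4 (right) against hours, on separate scales from 0, with circles for control arrays, triangles for induced arrays, lines through the mean of each pair and a dotted line at the floor of 135.61. At 48 and 72 h the TSPAN31 triangles lie above all circles and the CDK4 triangles lie below all circles.

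CD81, a partner of integrins and a protein of exosomes, was modestly higher in late induced cells. Control arrays read 6305 and 5256 at 0 h, 8518 and 8651 at 24 h, 6370.0 and 8043 at 48 h, and 7662 and 7962 at 72 h. Induced arrays read 5725 and 8734 at 12 h, 8607 and 8304 at 24 h, 11317 and 10785 at 48 h, and 10501 and 13662 at 72 h. All 4 induced arrays of 48 and 72 h exceeded the other 12, while at 24 h the groups overlapped. The fitted difference was log2 -0.02 (SE 0.20) at 24 h, 0.63 (SE 0.20) at 48 h and 0.62 (SE 0.20) at 72 h, or 1.54-fold and 1.53-fold at the later hours. The CD81 probe set carries the suffix r, which the maker gave to sets chosen with relaxed rules.

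CD37, a leukocyte tetraspanin best known on B cells, read 12113 and 13794 at 0 h, 8451 and 11311 at 24 h, 10396 and 9180.4 at 48 h, and 13029 and 13080 at 72 h in control cells. In induced cells it read 6474 and 9461 at 12 h, 9979 and 10559 at 24 h, 13977 and 13665 at 48 h, and 13831 and 15160 at 72 h. The groups overlapped at 24 h, and induced arrays were higher at 48 h and at 72 h, but the 4 late arrays did not all exceed the 0 h controls. The fitted difference was log2 0.50 (SE 0.18) at 48 h and 0.15 (SE 0.18) at 72 h. The 72 h value lay below the median of all tested probe sets at that hour (0.18), and after median centring it was -0.03, so that its direction depends on the scaling.

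CD63, which cycles between the surface and late endosomes, spread widely within groups. Control arrays read 4152 and 1609 at 0 h, 2015 and 1070 at 24 h, 1810.3 and 2041 at 48 h, and 2352 and 2209.8 at 72 h. Induced arrays read 2109 and 1289 at 12 h, 3212 and 2194 at 24 h, 3219.9 and 3560.2 at 48 h, and 4013 and 2097 at 72 h. Induced arrays were higher at 24 h and 48 h and overlapped the controls at 72 h. The fitted differences were log2 0.85, 0.82 and 0.35 with an SE of 0.44 each. The value at 24 h was 0.40 and 1.31 without replicates 2 and 1 of the 24 h controls. The value at 72 h turned to -0.12 without replicate 1 of that induced group.

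TSPAN3, a tetraspanin found in many tissues, read between 1131 and 1629 in all 8 control arrays. In induced cells it read 1358 and 1337 at 12 h, 1426 and 1666 at 24 h, 1536 and 1966 at 48 h, and 2235 and 1832 at 72 h. The groups overlapped at 24 h and 48 h and were separate at 72 h, where the fitted difference was log2 0.64 (SE 0.23), or 1.56-fold.

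TSPAN4 differed in opposite ways at 24 h and 72 h. Its controls ranged from 408.5 to 3517, and both of these values came from 0 h, so that the replicates of 1 group span the whole control range. The induced arrays of 12 h read 1762 and 1067. At 24 h controls read 1171 and 2972 and induced arrays 634.3 and 635.1, at 48 h controls read 2567 and 1203 and induced arrays 3727 and 1913, and at 72 h controls read 1012 and 1585 and induced arrays 3527 and 3627. The induced arrays were thus lower at 24 h, overlapped at 48 h and were higher at 72 h. The fitted differences were log2 -1.56, 0.60 and 1.5, with an SE of 0.76 each. Without replicate 2 of the same-hour controls the 24 h value was -0.88 and the 48 h value 0.057.

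CD151, a partner of laminin-binding integrins, was the member whose late values were lower after induction. Of the 16 arrays, 6 lay at or under the floor. Controls read 461.7 and 663.0 at 24 h, 3.40 and 766.6 at 48 h, and 197.3 and 1147 at 72 h, and induced arrays 521.6 and 512.3, -337.9 and 172.7, and -88.0 and -615.7. At 72 h both induced arrays lay under both controls and under 0, and the fitted difference was log2 -1.81 (SE 0.88), at least 3.51-fold. Without replicate 2 of the 72 h controls it was -0.54, and the 48 h difference, -1.08, was 0.17 without replicate 2 of the 48 h controls. With the floor raised to the median of all values, the 72 h difference became -0.98, and with no floor it was -4.93.

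**Figure D2:**
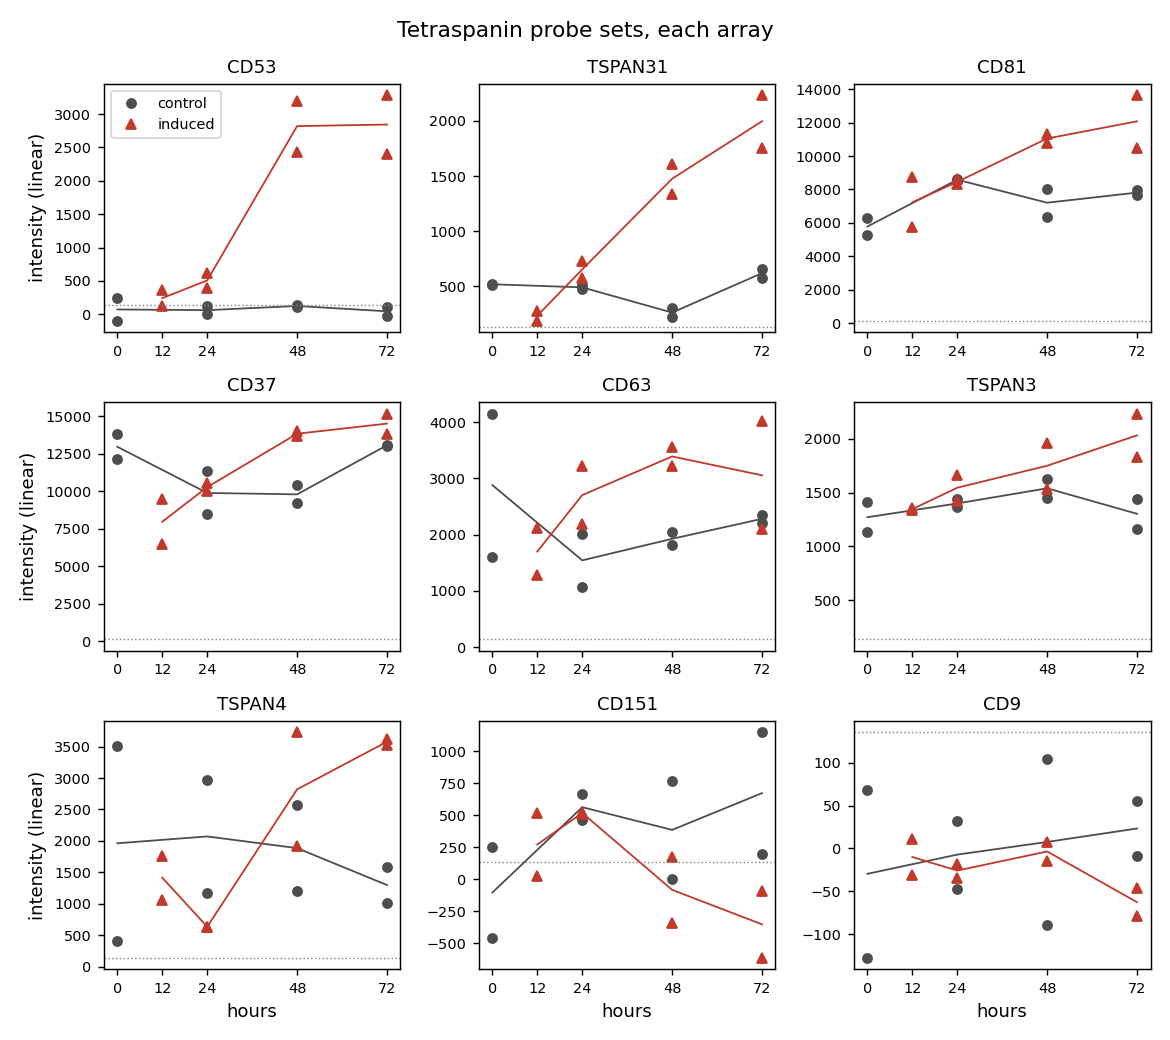
Linear intensity of the 9 tetraspanin probe sets against hours, 1 panel each with its own scale, with circles for control arrays, triangles for induced arrays, lines through the mean of each pair and a dotted line at the floor of 135.61. CD53, TSPAN31 and CD81 have the 4 induced arrays of 48 and 72 h above the other 12, and every CD9 array lies under the floor.

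Counted over the 8 tested members, induced arrays were all above control arrays for 3 at 24 h, 5 at 48 h and 6 at 72 h. Over all tested probe sets this held for 20.5%, 35.8% and 38.8%. Induced arrays were all below controls for 1 member (TSPAN4) at 24 h, 0 at 48 h and 1 (CD151) at 72 h, against 13.7%, 26.2% and 26.7% of all. CD53 and TSPAN31 were higher without overlap at all 3 hours (7.82% of all), and CD37 and CD81 joined them at 48 and 72 h (25.8% of all). The 3 members whose 4 late induced arrays exceeded the other 12 compare with 12.6% of all probe sets. CD53 is 1 of these 3 and passed the filter on low values only through 7 induced arrays, so its count is no support. Nothing is read from these comparisons, since the members were chosen with these contrasts known.

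At an adjusted p under 0.05 in limma's fit (Benjamini-Hochberg over 7824 probe sets), 3 of 8 members were past the threshold upward and 0 downward in the average of the 3 hours, against 18.5% and 13.4% of all probe sets (31.9% in either direction). These were CD53 (log2 3.52, SE 0.28), TSPAN31 (1.53, SE 0.20) and CD81 (0.41, SE 0.11), which was no longer past it after median centring (0.27). The same 3 were past it upward at 48 h (10.5% of all), and TSPAN3 joined them at 72 h (16.1% of all), while 0 members were past it downward at these hours (8.68% and 13.9% of all; 19.2% and 30.0% in either direction). At 24 h 0 probe sets of the whole table passed, with 397 at an unadjusted p under 0.05. The median member difference was log2 0.10 at 24 h, 0.61 at 48 h and 0.63 at 72 h, against 0.04, 0.09 and 0.18 over all tested probe sets. CD53 passed the filter on low values only through 7 induced arrays, so its calls are no support. Nothing is read from these medians or from the counts past the threshold, since the members were chosen with these contrasts known. CD81 was no longer past it after median centring or without the filter on low values at either hour, nor at 48 h without any 1 of the 4 arrays. TSPAN3 was no longer past it after quantile normalization, after median centring, with the replicate number as a block, or without any 1 of the 4 arrays. The count of 4 at 72 h became 2 after median centring, and also without replicate 2 of the induced or of the control cells at that hour.

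**Figure D3:**
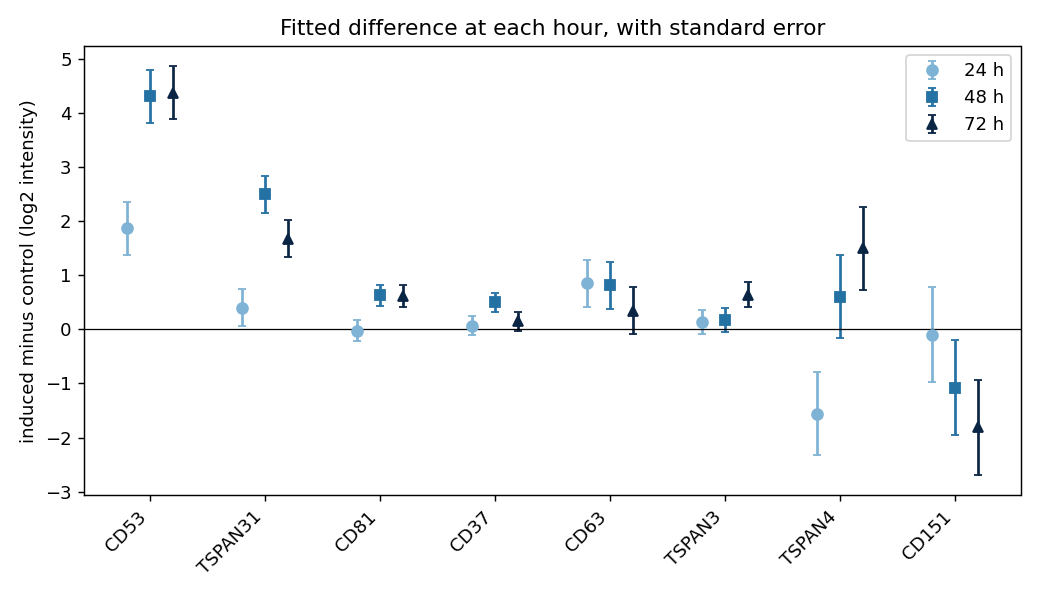
Fitted difference between induced and control cells (log2 intensity) at 24, 48 and 72 h for the 8 tested tetraspanins, with bars for 1 standard error. CD53 and TSPAN31 stand highest at 48 and 72 h, TSPAN4 lies below 0 at 24 h and above it at 72 h, and CD151 lies below 0 at all 3 hours, with values at the floor in the fit.

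Induced cells of 12 h and control cells of 0 h enter none of the same-hour differences. The members were still chosen with earlier results of these arrays known, so the p-values here are no independent test. Time and induction cannot be told apart here, and RUNX1T1 was under the floor in both groups. Of 8 members, 1 passed an adjusted p of 0.05 in limma's fit, against 3.28% of all probe sets (1.16% higher and 2.12% lower). At an unadjusted p under 0.05 in that fit, 2 members passed, against 1617 of all 7824 probe sets. CD37 was lower at 12 h than at 0 h (log2 -0.72, SE 0.18, adjusted p = 0.0485, lower in 2 of 2 arrays). Its control cells were also lower than at 0 h without overlap at 24 h and 48 h (log2 -0.40 each, SE 0.18), but not at 72 h (log2 0.01). The 12 h call of CD37 ended after quantile normalization (adjusted p = 0.068) and median centring (0.121). It also ended without the filter on low values (0.108), with the floor at the median of all values (0.0508) and with no floor (0.05). Without 1 array at a time the adjusted p was 0.097 and 0.204 without replicates 1 and 2 of the control, and 0.245 and 0.0216 without replicates 1 and 2 of the induced cells. TSPAN31 was also lower without overlap (log2 -1.17, SE 0.34, adjusted p = 0.0731) and did not pass, and induced arrays were below controls for 31.6% of all probe sets in this comparison. The median of all tested probe sets was log2 -0.15.

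Control cells were also compared with each other over time. The arrays of 24, 48 and 72 h are the control side of the same-hour differences, so this comparison is not independent of the choice of members. In limma's F test over controls of 0, 24, 48 and 72 h, 0 of 8 members passed an adjusted p of 0.05, with adjusted p-values from 0.327 to 0.964, against 0.192% of all probe sets. At an unadjusted p under 0.05 in that test, 2 members passed, against 847 of all 7824 probe sets. Each later control set against 0 h gave 0 calls among the 8 members, against 0.498% of all probe sets at 24 h, 0.0128% at 48 h and 0.0383% at 72 h. TSPAN31 had the smallest adjusted p, with its low pair at 48 h (log2 -0.996 against 0 h, 95% interval -1.73 to -0.26), which also enters its 48 h difference from induced cells. CD81 was higher than at 0 h in both arrays of each later control, by log2 0.58, 0.31 and 0.44 (SE 0.20 each). CD53 differed from the 0 h controls by log2 -0.42 at 24 h and 72 h and by -0.36 at 48 h, with 95% intervals between -1.47 and 0.69, and no fold is given because arrays on both sides lay at the floor.

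Likeness to CD53 was measured over the 16 arrays as the mean absolute difference of log2 values after each probe set was centred on its own mean. EVI2B, a leukocyte membrane protein, was closest, at 0.28, among 6877 probe sets with 1 symbol, whose median was 1.54. The tumour antigen PRAME (0.37), the phosphatase subunit PPP2R5B (0.37), the phospholipid-binding protein ANXA1 (0.47) and the DNA-binding protein ARID5B (0.48) followed. Like CD53, their largest values lay in the 4 induced arrays of 48 and 72 h, and their differences at 24 h were log2 1.87, 1.18, 0.89, 1.63 and 1.33. These genes were picked by likeness over the same arrays, so a shared pattern follows from the choice. EVI2B stood at the same value, -1.39 from its mean, in every control and 12 h array. Part of its likeness thus comes from low values set to the floor. Among the tetraspanins TSPAN31 was closest to CD53, at 0.95, and the others lay between 1.30 (CD81) and 1.94 (CD151).

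**Figure D4:**
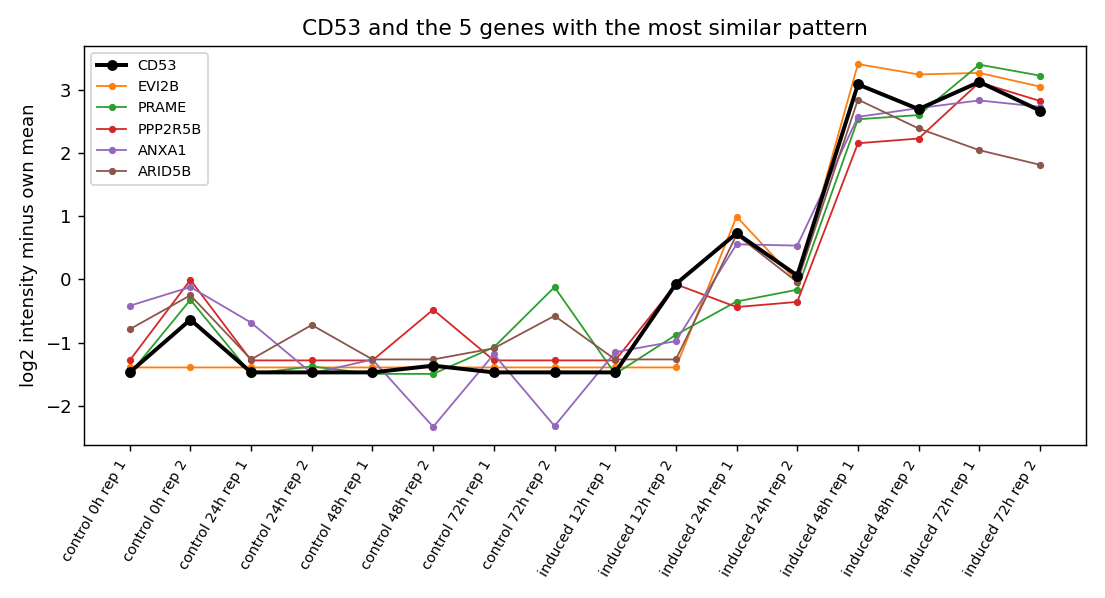
Log2 intensity of CD53 (thick black line) and of the 5 genes most like it, each minus its own mean over the 16 arrays, which stand along the horizontal axis by group and replicate. All 6 lines are highest in the 4 induced arrays of 48 and 72 h. At 24 h the induced arrays of PRAME and PPP2R5B lie within the range of their controls.

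Of 23 other tetraspanin genes, 11 had a probe set and 5 were tested, of which 1 was past the threshold upward and 1 downward in the average of the 3 hours (18.5% and 13.4% of all probe sets). Their median difference was log2 -0.18, against 0.10 over all probe sets. The list was chosen with earlier results known and the genes below were named because they were called, so an adjusted p-value here is no independent test. TSPAN5, a member of the group that guides the protease ADAM10 to the surface, read between 376.8 and 616.7 in controls, 233.4 and 80.8 at 48 h and 75.5 and 100.1 at 72 h after induction. It fell at least 2.04-fold on average (log2 -1.03, SE 0.22, adjusted p = 0.00291 in limma's fit). TSPAN7 read at most 236.9 in controls, 501.5 and 297.3 at 48 h and 1093 and 340.6 at 72 h after induction. The fitted difference was log2 1.14 (SE 0.30) on average and 2.17 (SE 0.52) at 72 h, at least 4.50-fold at that hour. TSPAN7 is the gene counted as higher, and it passed the filter on low values only through 4 induced arrays, so its count is no support and no p-value is given. Its call ended with the floor at the median of all values and against the 0 h controls. Without replicate 1 of the 72 h induced cells, 4 of these genes passed.

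Of 31 membrane partners of tetraspanins, 19 were tested, and 6 were past the threshold upward and 4 downward on average, against 18.5% and 13.4% of all probe sets. Their median was log2 0.30, against 0.10 over all probe sets. A gene with several probe sets was counted by the one with the largest absolute test statistic. This can raise the counts and the median against values over all probe sets. The list was chosen with earlier results known, and the genes named are called ones of largest difference. Their adjusted p-values are therefore no independent test. ADAM10, the protease that tetraspanins escort, rose 2.52-fold (log2 1.33, SE 0.16, adjusted p = 3.12e-05), and its second probe set also passed (log2 1.26, SE 0.36, adjusted p = 0.015). The integrin chain ITGB1, the beta chain of CD151-binding and CD81-binding integrins, rose 2.31-fold (log2 1.21, SE 0.11, adjusted p = 3.91e-06). The leukocyte integrin chain ITGB2 fell 2.83-fold (log2 -1.50, SE 0.12, adjusted p = 1.08e-06). ICAM1, the ligand of ITGB2 integrins, differed by log2 2.08 (SE 0.23) on average, and by log2 1.49 with the floor at the median of all values. At 72 h alone it was 14.2-fold higher (log2 3.83, SE 0.39). ICAM1 is 1 of the 6 counted, but it passed the filter on low values only through 4 induced arrays, so no p-value is given.

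Of 21 genes of late endosomes, lysosome membranes and exosomes, 16 were tested, and 4 were past the threshold upward and 2 downward on average, a share near that of all probe sets (18.5% and 13.4%). Their median was log2 0.24, against 0.10 over all probe sets. Here too a gene with several probe sets was counted by the one with the largest absolute test statistic, which can raise these values. As for the other lists, the choice was made with earlier results known, so the adjusted p-values of the named genes are no independent test. TSG101, a subunit of the sorting complex ESCRT-I, rose 2.04-fold (log2 1.03, SE 0.27, adjusted p = 0.00908). RAB27A, a GTPase of vesicle release, fell 1.61-fold (log2 -0.68, SE 0.23, adjusted p = 0.0356), and its second probe set, at log2 -0.46, did not pass. The RAB27A call ended without the filter on low values (adjusted p = 0.124), against the 0 h controls (0.128) and on leaving out any of 6 single arrays, and the TSG101 call ended against the 0 h controls (0.126). The sorting adaptors STAM (log2 0.57, SE 0.20, adjusted p = 0.046) and HGS (log2 0.37, SE 0.12, adjusted p = 0.0351) rose, and neither call held after median centring (adjusted p = 0.0682 and 0.133). The list's 6 calls became 3 after median centring and 2 without a filter on low values or against the 0 h controls. They were also 3 without replicate 2 of the 48 h induced cells, and 2 without replicate 2 of the 72 h induced cells or replicate 1 of the 48 h controls.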

How the data were processed

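The authors deposited 1 linear intensity per probe set and array for 16 arrays. Scale factors ran from 0.785 to 1.22, per the labels, and all array means were 1370.9. The software that summarised probes into probe sets: not given in the sources used here. Symbols came from the platform annotation, which can be old. Of 12626 probe sets, 10961 had 1 symbol, 546 several (not named) and 1119 none. The 67 control probe sets were left out.

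Values under the floor (135.61) were set to it and log2 was taken, and 9.81% of tested values lay there. limma 3.58.1 (R 4.3.3) fitted 1 mean per group with a mean-variance trend, leaving 8 residual degrees of freedom, and Benjamini-Hochberg adjustment ran over 7824 probe sets. Tests were two-sided, and the fit was tested on simulated data. Precision is limited by having 2 arrays a group. Members and gene lists were chosen with earlier results of these data known. All members were named. Of each list, up to 4 called genes with the largest average difference were named, each by its probe set of larger absolute moderated t, and the 5 genes most like CD53. CDK4 and the list genes' second probe sets were named after their values were seen.

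Whether replicate numbers pair the arrays is not known, and the main fit had no block. Alternatives were quantile normalization, median centring, a higher floor, no floor, other filters, a replicate block, other controls and leaving out each array.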

Additional observations from a re-analysis of the deposited data

Results flagged for a closer look

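TSPAN4 was singled out because both induced arrays lay below both controls at 24 h and above both at 72 h. Its log2 difference at 72 h exceeded that at 24 h by 3.05. Whether the 2 hours differ was not tested. Its controls of 0 h read 408.5 and 3517, a wide spread within 1 group.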

How the results depend on the processing

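Among all tested probe sets, 2499 passed for the average, against 1366 with the 0 h controls. At 24 h 0 passed, against 4 without the filter on low values and 4 with the stricter filter. At 12 h against 0 h 257 passed, against 169 without the filter. For the control time course 15 passed, against 24 with the floor at the median and 29 without the filter. The tetraspanins past the threshold at 72 h numbered 4, and 2 after median centring. Leaving out 1 array gave 2109 to 2576 calls for the average, 0 to 1 at 24 h, 854 to 933 at 48 h against 1499, 1602 to 1873 at 72 h against 2348, 80 to 150 at 12 h (80 without replicate 2 of the 0 h controls) and 7 to 21 for the control time course (7 without replicate 2 of the 24 h controls). For the tetraspanins it gave 3 to 4 in the average, 2 to 2 at 48 h against 3, and 2 to 3 at 72 h.

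The upward share of calls was 58.1% for the average and 44.8% after median centring, 54.7% and 43.8% at 48 h, 53.6% and 43.2% at 72 h, and 35.4% and 73.4% at 12 h against 0 h. The average over 48 and 72 h alone, an alternative chosen after seeing the data, was log2 4.34 for CD53, 2.09 for TSPAN31 and 0.62 for CD81, and called 2924 probe sets. With the replicate number as a block, 2616 probe sets were called for the average, 1564 at 48 h, 2425 at 72 h, 286 at 12 h and 15 over control time, and 4 tetraspanins in the average in place of 3. Deviations of same-numbered replicates correlated at -0.152 to 0.25 over 28 pairs of groups, above 0.1 in 7 and under -0.1 in 2. These values do not exclude a weak pairing of arrays by replicate number. Of 432 alternative values of the members' same-hour and average differences, 29 moved by at least 1 SD between replicates and 0 of those past the threshold changed sign. For the members at or under the floor, CD9 in all arrays and CD53 in most controls, the signal over background limits what can be said.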
